A study of Mus musculus with 11 samples.

Results

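MyoD was bound at 13527 places in C2C12 myotubes where it was already bound in myoblasts. These kept sites were chosen by position in the peak lists, as the myotube MyoD peaks that overlapped a myoblast MyoD peak by 1 bp or more. They made up 34.1% of the 39700 myotube peaks (95% interval 33.6 to 34.5) and lay on 13407 of the 18141 myoblast peaks, or 73.9% (73.3 to 74.5). The other 26173 myotube peaks are called new sites, and the 4734 myoblast peaks that no myotube peak touched are called myoblast-only sites. A peak missing from a list does not show that MyoD was absent, since the depth of the MyoD libraries is unknown.

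MyoD is the basic helix-loop-helix transcription factor that commits cells to the skeletal muscle lineage. It pairs with an E-protein and binds E-boxes, short motifs of the form CANNTG (N is any base), with a preference for CAGCTG and CAGGTG. Its relative MyoG (myogenin) is made as myoblasts leave the cell cycle, binds similar motifs and takes part in terminal differentiation. H3K4me1 is a histone mark of enhancers, both poised and active.

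C2C12 is an established myoblast line of the C3H mouse strain that grows in 10% fetal bovine serum and fuses into myotubes in 2% horse serum with insulin, transferrin and selenium. Chromatin immunoprecipitation and sequencing gave MyoD peaks, MyoG peaks and H3K4me1 domains of myotubes at 48 h of differentiation, and MyoD peaks and H3K4me1 domains of proliferating myoblasts. PolyA RNA was sequenced from myocytes at 4 h of differentiation in 4 libraries: RNAi against the RNA of DRR, the distal regulatory region of Myod1, which is an enhancer (DRRi), RNAi against GFP (GFPi), overexpression of that RNA (pHAN_DRR1.2) and overexpression of GFP (pHAN_GFP). Each group held 1 sample of 1 cell line, so differences between groups could not be set against replicates, no test was made across samples, and the exact Clopper-Pearson 95% intervals given with shares cover counting error only. The RNA was taken at neither of the stages at which MyoD was mapped.

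The expression tables listed Myod1 at 33.1 FPKM (fragments per kilobase of sequence, scaled to library size) in DRRi, 37.7 in GFPi, 65.6 in pHAN_DRR1.2 and 68.9 in pHAN_GFP. Of 15 markers of other lineages, 14 were under 1 FPKM in all 4 libraries; the exception was Krt14, a basal keratin, at 4.21 FPKM in DRRi, 5.86 in GFPi, 10.0 in pHAN_DRR1.2 and 6.75 in pHAN_GFP. The summed level of the 15 was 4.56 FPKM in DRRi, 5.96 in GFPi, 10.1 in pHAN_DRR1.2 and 6.96 in pHAN_GFP. The depth of the RNA and MyoD libraries is unknown. The H3K4me1 domains held 8842751 reads in myotubes and 9555012 in myoblasts, which are not library depths.

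Promoters of some genes with a kept site over the start are printed here with their E-boxes. The sequences run from 250 bases before to 50 bases after the start (RefSeq, GRCm38.p6) and have every CANNTG in capitals. They belong to listed muscle and regulator genes whose start lay inside a kept site, and were chosen to show promoters with several, with 1 and with no preferred E-box. Chrna1 (chr2:73580289-73580588, minus strand) and Chrng (chr1:87205561-87205860, plus strand) encode subunits of the muscle acetylcholine receptor. Hes6 (chr1:91413173-91413472, minus strand) encodes a basic helix-loop-helix regulator that favours differentiation. Ttn (chr2:76982498-76982797, minus strand) encodes the giant sarcomere spring titin, Pdlim3 (chr8:45885237-45885536, plus strand) a Z-disc protein, and Myog (chr1:134289754-134290053, plus strand) MyoG itself.
Chrna1: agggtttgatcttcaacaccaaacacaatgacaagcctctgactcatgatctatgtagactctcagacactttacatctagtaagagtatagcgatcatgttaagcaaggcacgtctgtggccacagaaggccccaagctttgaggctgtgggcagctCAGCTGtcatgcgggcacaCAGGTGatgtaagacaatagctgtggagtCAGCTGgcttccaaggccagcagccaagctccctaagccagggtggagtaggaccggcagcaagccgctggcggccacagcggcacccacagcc
Chrng: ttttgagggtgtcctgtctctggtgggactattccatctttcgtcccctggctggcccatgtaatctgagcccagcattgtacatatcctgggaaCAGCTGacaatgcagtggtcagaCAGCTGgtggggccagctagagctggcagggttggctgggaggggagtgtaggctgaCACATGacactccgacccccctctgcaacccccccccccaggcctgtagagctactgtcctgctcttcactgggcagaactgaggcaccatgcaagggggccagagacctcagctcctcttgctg
Hes6: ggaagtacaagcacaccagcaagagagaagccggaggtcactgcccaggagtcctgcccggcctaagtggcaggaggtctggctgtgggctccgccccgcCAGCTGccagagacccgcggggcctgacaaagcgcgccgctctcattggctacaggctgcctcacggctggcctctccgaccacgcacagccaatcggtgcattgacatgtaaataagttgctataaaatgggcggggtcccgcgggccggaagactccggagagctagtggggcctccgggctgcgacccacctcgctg
Ttn: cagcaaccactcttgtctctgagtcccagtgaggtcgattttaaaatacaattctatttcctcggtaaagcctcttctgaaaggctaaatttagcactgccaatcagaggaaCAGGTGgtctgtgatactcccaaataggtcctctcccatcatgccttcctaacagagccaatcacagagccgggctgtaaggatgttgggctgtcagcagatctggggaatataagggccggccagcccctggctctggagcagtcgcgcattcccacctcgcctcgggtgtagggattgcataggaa
Pdlim3: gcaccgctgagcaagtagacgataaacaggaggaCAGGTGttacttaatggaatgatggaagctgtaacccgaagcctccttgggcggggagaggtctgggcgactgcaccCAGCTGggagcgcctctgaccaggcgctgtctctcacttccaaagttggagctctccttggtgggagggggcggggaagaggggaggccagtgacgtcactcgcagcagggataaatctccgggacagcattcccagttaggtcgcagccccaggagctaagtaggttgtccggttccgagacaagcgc
Myog: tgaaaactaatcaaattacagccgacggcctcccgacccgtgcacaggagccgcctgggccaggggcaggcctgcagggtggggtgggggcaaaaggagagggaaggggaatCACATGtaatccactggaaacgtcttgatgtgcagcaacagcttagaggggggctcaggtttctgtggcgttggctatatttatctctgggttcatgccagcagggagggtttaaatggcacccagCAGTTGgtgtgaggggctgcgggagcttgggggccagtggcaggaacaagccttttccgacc
The Chrna1 promoter held CAGCTG starting 92 and 44 bases upstream of the start and CAGGTG 73 bases upstream. Chrng held CAGCTG 155 and 132 bases upstream, and Hes6 held it 150 bases upstream. Ttn held CAGGTG 138 bases upstream, and Pdlim3 held CAGGTG 216 and CAGCTG 139 bases upstream. The 2 E-boxes of the Myog promoter were of other kinds, CACATG at 138 and CAGTTG at 12 bases upstream.

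A preferred E-box was found at 63.3% of the promoters under a kept site. The motifs searched were CAGCTG, which reads the same on both strands, and CAGGTG with its reverse complement CACCTG; all are forms of CANNTG. RefSeq starts could be matched for 11262 genes, of which 482 had a kept site over the start, 909 a new site and 9806 no MyoD site of either stage. Among the 482, 305 held one of these motifs (58.8 to 67.6), against 459 of the 909 under a new site, or 50.5% (47.2 to 53.8), and 27.7% (26.8 to 28.6) with no site. Over all 32851 RefSeq promoters of the same length the share was 32.9%.

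CAGCTG alone was held by 42.5% (38.1 to 47.1) of promoters under a kept site, against 30.4% (27.4 to 33.5) under a new site and 12.5% (11.9 to 13.2) with none. CAGGTG or CACCTG was held by 28.0% (24.0 to 32.2) under a kept site, against 26.1% (23.2 to 29.1) under a new site. The general form CANNTG was held by 82.0% under a kept site and by 67.3% with no MyoD site. The kept sites over promoters also had higher MyoD scores than the new ones, and at like scores the shares lay close. Where the site was below the 50th percentile of the myotube list, one of the preferred motifs was in 53.9% (43.8 to 63.8) of 102 kept and 46.5% (42.6 to 50.4) of 652 new promoters. Between the 50th and 75th percentile it was in 62.0% (54.2 to 69.5) of 166 kept and 59.2% (52.2 to 66.0) of 206 new promoters, and between the 75th and 90th in 71.6% (63.2 to 79.1) of 134 and 70.0% (53.5 to 83.4) of 40. Above the 90th, 80 kept promoters and 11 new ones remained, with 63.7% (52.2 to 74.2) and 54.5% (23.4 to 83.3).

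Of the listed genes described further on, 18 had a kept site over a matched start. Their promoters held a preferred motif in 14 cases and some CANNTG in 17. The 4 without a preferred motif were Myog, Cdh15, the gene of the muscle cadherin, Smyd1, which encodes a muscle methyltransferase, and Mcm2, a subunit of the replicative helicase. Absence here says only that these letters are not in the 300 bases.

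The overlap that chose the sites was close in nearly all of them. The shared stretch had a median of 746 bp, covering a median of 92.8% of the myotube peak and 95.1% of the myoblast peak. A single myoblast peak was overlapped in 13416 cases, 2 in 108 and 3 in 3. Peak centres lay a median of 53 bp apart, and within 100 bp of each other at 72.2% of kept sites (71.4 to 72.9). At the edge of the rule, 6 kept sites shared 10 bp or less and 39 shared 100 bp or less, while 6 new sites came within 10 bp of a myoblast peak and 111 within 100 bp. The narrowest overlap, 3 bp, was that of chr10:80871373-80871970 (mm9, as all site positions here), with a score of 63.5, and of chr2:102799708-102800273, with a score of 83.6. The nearest new site, chr15:66637674-66638533, lay 1 bp from a myoblast peak and had a score of 115. New sites were a median of 21489 bp from the nearest myoblast peak.

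Kept sites stood high in the myotube list. The authors' peak score ran from 60 upward, with many peaks at 3100, and was ranked within each list. The median myotube score was 404 at kept sites (percentile 73.4), against 130 at new sites (percentile 39.1). Their myoblast peaks had a median score of 213 (percentile 59.1), against 100 at myoblast-only sites (percentile 29.4). A score of 3100 or more was reached by 530 kept and 31 new myotube peaks. These values come from the same peak lists that the rule used and describe the members without testing anything.

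The kept share climbed through the score deciles of both lists. In myotubes it was 11.7% in the lowest decile, 23.9% in the fifth, 47.3% in the eighth and 80.2% in the highest. In myoblasts, 51.5% of the peaks in the lowest decile and 98.3% in the highest lay under a myotube peak. With the myotube list limited to its 18141 highest scores, the length of the myoblast list, 53.0% (52.3 to 53.7) of its peaks were kept, an alternative added after the data were seen.

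**Figure D1:**
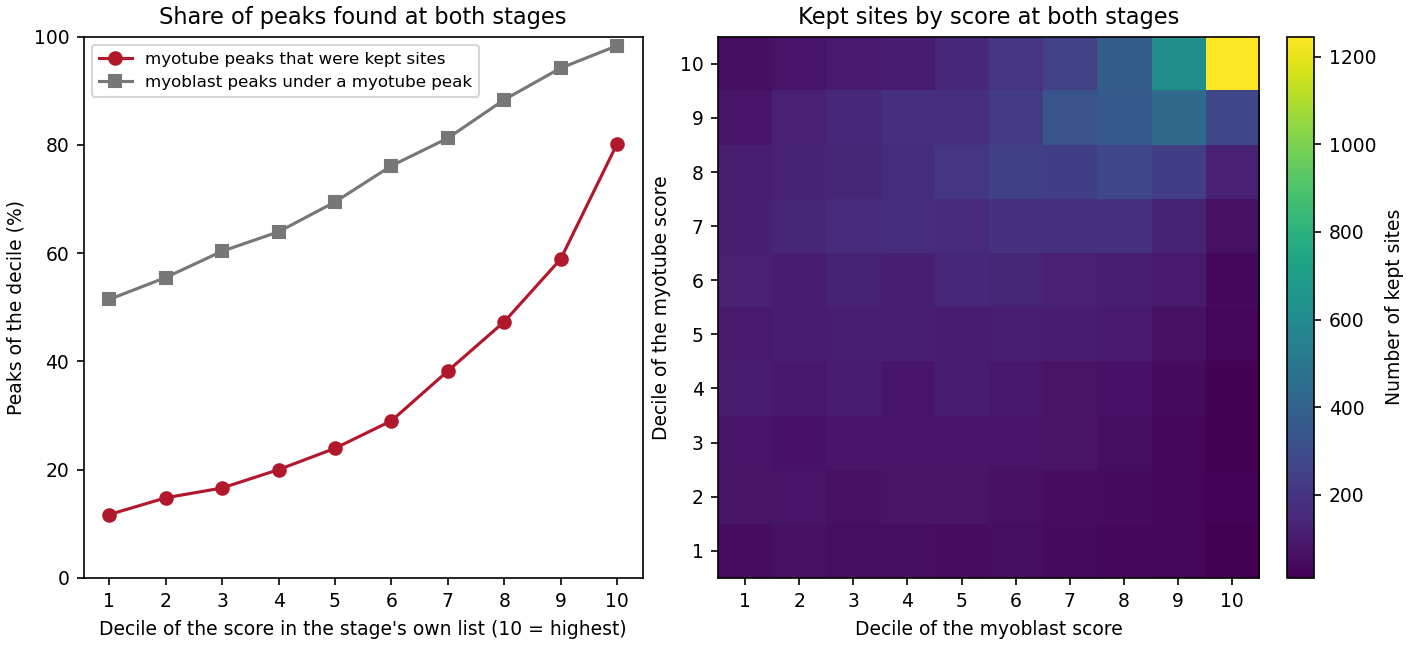
Left, the share of peaks found at both stages by decile of the score within each list, for myotube peaks (red circles, 11.7% in the lowest decile and 80.2% in the highest) and myoblast peaks (grey squares, 51.5% and 98.3%). Right, the number of kept sites by myotube and myoblast score decile, where 1246 sites fall in the highest decile at both stages.

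Ranks at the 2 stages went together only in part. Over the 13527 sites, which share 1 library per stage, Spearman's rho between the myotube and myoblast scores was 0.46 and Pearson's r between the percentiles 0.41. The highest decile at both stages held 1246 sites (9.21%), and scores above the 50th percentile at both held 6713 (49.6%). The myotube percentile was above the myoblast percentile at 8844 sites (65.4%). It was more than 25 points above at 3913 sites (28.9%) and more than 25 points below at 1432 (10.6%). The highest myotube decile held 495 sites that were below the 50th percentile of the myoblast list, and 91 sites did the reverse. The percentiles belong to lists of unlike make-up. Kept sites were 34.1% of the myotube list, whose other peaks mostly scored lower, and they lay on 73.9% of the myoblast list. A higher percentile in myotubes is therefore not a measure of stronger binding there.

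Kept sites were a median of 845 bp long in myotubes, against 708 bp for new sites. Their myoblast peaks had a median of 832 bp, against 727 bp for myoblast-only sites. The same site was longer in myotubes in 52.8% of cases, with a median difference of 15 bp, and lengths at the 2 stages had a Spearman's rho of 0.49. Longer peaks also scored higher (rho of 0.69 in myotubes over the same sites) and overlap more easily.

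MyoG was found at most kept sites. A MyoG peak overlapped 10927 of them, or 80.8% (80.1 to 81.4), against 15616 new sites, or 59.7% (59.1 to 60.3). Seen from the MyoG list, 32.6% of its 35380 peaks lay on a kept site. The MyoG peak at a kept site had a median percentile of 72.8 in its own list, against 53.1 at a new site, and its centre was a median of 51 bp from the MyoD centre, against 45 bp.

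At like MyoD scores the MyoG shares lay closer. In the lowest decile of myotube scores MyoG overlapped 42.9% (38.3 to 47.5) of kept and 30.5% (29.0 to 32.1) of new sites. In the fifth decile the shares were 64.5% (61.4 to 67.6) of kept and 62.1% of new sites. In the seventh they were 80.7% (78.6 to 82.7) and 81.6%, and in the highest 98.5% and 98.6%, so kept sites were not ahead in the upper deciles. By the myoblast score, MyoG was at 71.2% of kept sites in its lowest decile and 93.3% in its highest. The 2600 kept sites without MyoG had a median myotube percentile of 42.7, against 79.2 for those with it, and 48 of them were in the highest decile.

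**Figure D2:**
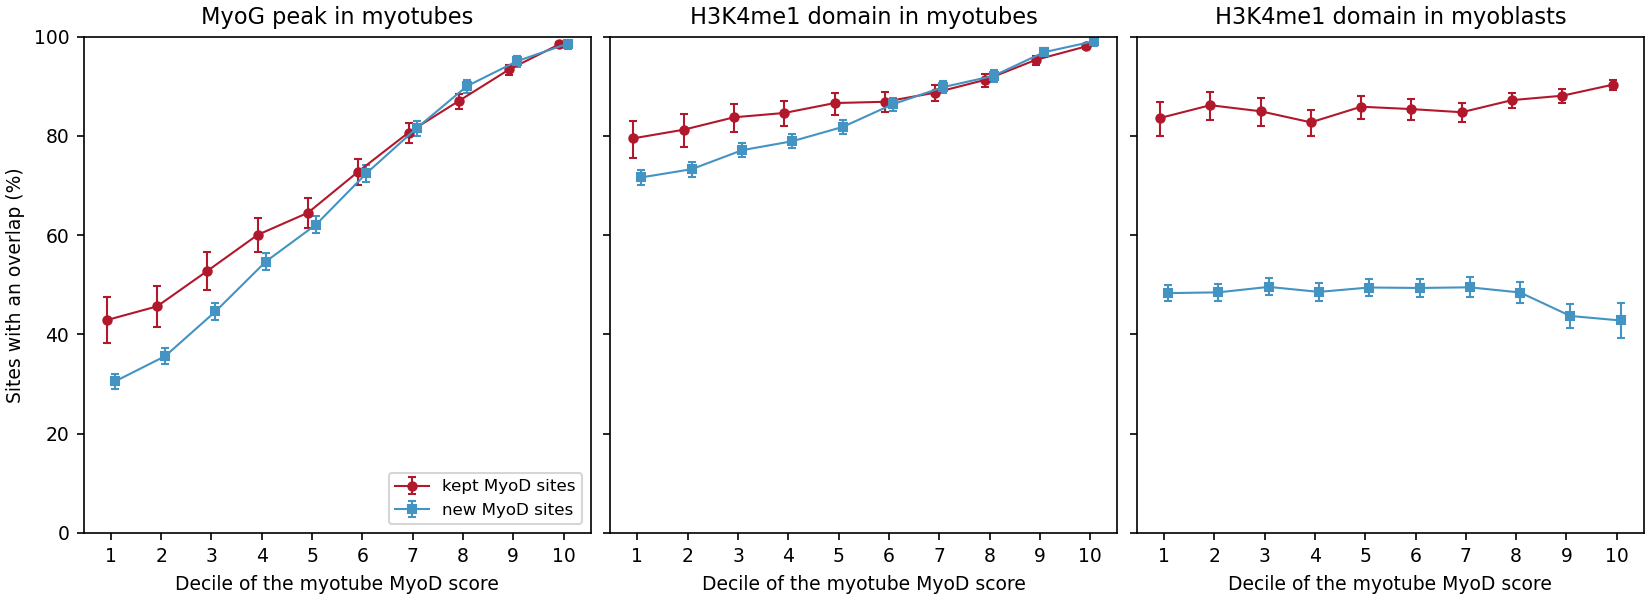
Share of kept (red circles) and new (blue squares) MyoD sites that overlapped a MyoG peak in myotubes, an H3K4me1 domain in myotubes or an H3K4me1 domain in myoblasts, by decile of the myotube MyoD score, with exact 95% intervals of counting error. The kept and new curves meet in the upper deciles for MyoG (98.5% and 98.6% in the highest) and stay apart for the myoblast domain (90.3% and 42.8%).

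H3K4me1 marked most kept sites at both stages. A domain overlapped 11300 of them in myotubes and in myoblasts, or 83.5% (82.9 to 84.2), against 46.0% (45.4 to 46.6) of new sites and 67.0% (65.6 to 68.3) of myoblast-only sites. A domain in myotubes alone was at 7.47% of kept sites, against 35.9% of new and 2.30% of myoblast-only sites. A domain in myoblasts alone was at 3.51%, against 2.40% of new and 18.9% of myoblast-only sites. No domain was found at 742 kept sites (5.49%), against 15.7% of new and 11.8% of myoblast-only sites.

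**Figure D3:**
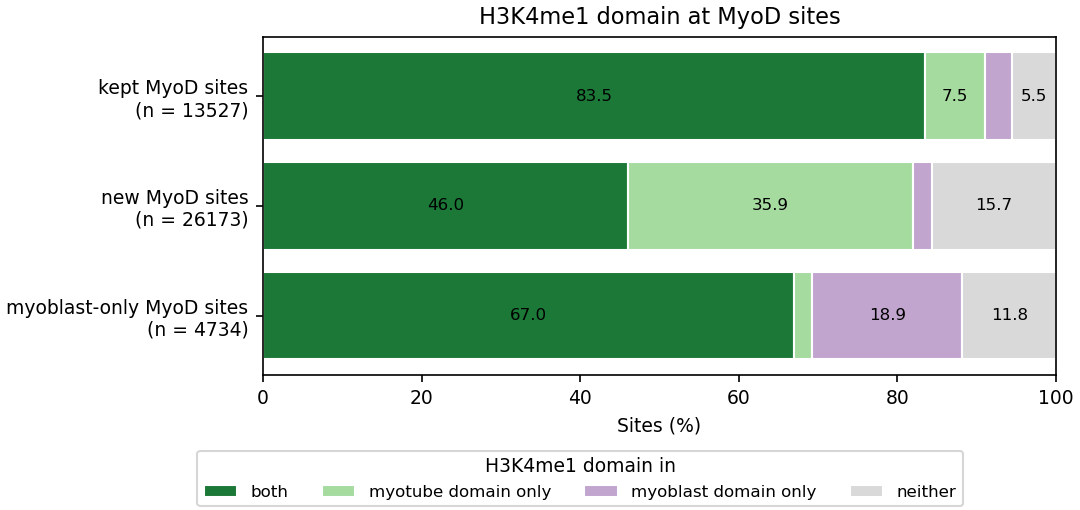
Share of kept, new and myoblast-only MyoD sites with an H3K4me1 domain at both stages, in myotubes only, in myoblasts only or at neither. Both stages were marked at 83.5% of kept, 46.0% of new and 67.0% of myoblast-only sites.

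The myoblast domain share lay apart between kept and new sites in every score decile. The myoblast domain covered between 82.7% and 90.3% of kept sites over the 10 deciles of the myotube score, and between 42.8% and 49.6% of new sites. This was not particular to kept sites among myoblast MyoD sites: the domain was at 85.9% of myoblast-only sites, beside 87.0% of all kept sites. The myotube domain did not separate them in this way: it covered 79.5% of kept and 71.6% of new sites in the lowest decile, 86.9% and 86.4% in the sixth, and 98.1% and 99.1% in the highest. Myoblast MyoD peaks were themselves a part of the rule, and kept sites differ from new ones in overlapping a listed myoblast peak. H3K4me1 before MyoD and H3K4me1 with MyoD therefore cannot be told apart here.

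The domains at kept sites were long. The myotube domain had a median of 5200 bp at kept sites, against 4200 bp at new sites and 2400 bp over all myotube domains. The myoblast domain had a median of 4800 bp, against 3800 bp and 2200 bp. Longer domains cover more of the genome and meet a site more easily. The deposited fold of the domain over its control had a median percentile of 75.7 in myotubes at kept sites, against 66.2 at new sites, and of 71.3 in myoblasts, against 52.0. Across the 11300 sites marked at both stages the fold of the 2 domains had a Spearman's rho of 0.29.

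Sites with the mark at both stages also held MyoG more often. MyoG was at 83.6% (82.9 to 84.3) of them, at 76.5% (73.8 to 79.1) of those marked in myotubes alone, at 60.4% (55.9 to 64.8) of those marked in myoblasts alone and at 56.9% (53.2 to 60.5) of those with no domain. Kept sites marked in myotubes alone had a median myotube score percentile of 78.4 and a median myoblast percentile of 33.9. Those marked at both stages had 75.4 and 63.7.

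Kept sites lay somewhat further from genes than new sites. Inside a deposited gene locus were 51.7% (50.9 to 52.6) of kept sites, against 56.0% (55.4 to 56.6) of new and 40.1% (38.7 to 41.5) of myoblast-only sites. Within 10 kb of a locus were 64.9%, against 70.2% and 50.8%. More than 50 kb from every locus were 18.0% (17.4 to 18.7), against 14.2% of new and 29.6% of myoblast-only sites. By chromosome the kept share of myotube peaks ran from 32.4% on chromosome 11 to 37.0% on the X chromosome. The loci carry no strand, and 2082 gene symbols share their locus with another symbol.

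A kept site was within 10 kb of 6077 of the 20368 genes (29.8%), a new site alone was near 5339, and 8952 genes had neither. Of the genes with a kept site, 70.5% were at 1 FPKM or more in DRRi, 70.0% in GFPi, 72.0% in pHAN_DRR1.2 and 72.0% in pHAN_GFP. For genes with new sites alone these shares ran from 66.0% to 66.7%, and for genes with no site from 30.6% to 30.8%. Loci near kept sites were also longer, with a median of 35973 bp, against 21727 bp with new sites alone and 10833.5 bp with none. Within the shortest quartile of loci the share in pHAN_DRR1.2 was 63.5% with a kept site, 56.8% with new sites alone and 15.1% with none, and in the longest quartile 71.4%, 63.7% and 33.7%.

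Long genes collected many kept sites. Zmiz1, a transcriptional coregulator, had 17, with myotube scores from 66.3 to 1745 and myoblast scores from 62.6 to 643. Of these, 11 lay in a single myotube H3K4me1 domain of 78800 bp, the most kept sites found in 1 domain. Sept9, a septin of the cytoskeleton, and Ttc28 had 14 each. Sorcs2, a sorting receptor that shares its deposited locus with Psapl1, had 13. Col4a2, a basement membrane collagen, Myo10, the myosin of filopodia, Nav2 and 1700112E06Rik had 12 kept sites each.

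A score of 3100 or more at both stages was reached by 106 kept sites. The 10 described here stood first by the lower of their percentiles, with ties ordered by length. They lay in Runx1, a Runt-domain transcription factor, at chr16:92608075-92610643, in Syt13, a synaptotagmin, at chr2:92787375-92789156, in Plec, the cytoskeletal linker plectin, at chr15:76033866-76039117, in Cdh15 at chr8:125371822-125376589, in Arhgef2 at chr3:88433151-88436650, and over Rbbp4 near Sync at chr4:128962918-128966220. The other 4 were far from any locus. One was 77177 bp from Runx1, one 44902 bp from Tnp1, one 87969 bp from Fam92b and one 52583 bp from Sik1. All 10 held a MyoG peak and an H3K4me1 domain at both stages.

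Listed genes with a kept site are set beside the 29.8% of all genes that had one. The 12 lists used here hold 243 genes, chosen for their known roles with results of these data in view. A kept site lay within 10 kb of 20 of 23 genes of fusion and adhesion, 16 of 20 myogenic regulators, 18 of 24 genes of excitation and synapse, 14 of 19 E-proteins and repressors, 12 of 17 AP-1 and partner factors, 27 of 39 sarcomere genes and 14 of 23 genes of growth signalling. The counts were 7 of 15 genes of cell cycle exit (46.7%), 5 of 12 of muscle metabolism (41.7%), 8 of 22 of the cell cycle (36.4%) and 5 of 14 housekeeping genes (35.7%), all above the share of all genes, and 3 of 15 markers of other lineages (20.0%), below it. The share of all genes includes many with little RNA. Of the 10577 genes averaging at least 1 FPKM in DRRi and GFPi, 4285 had a kept site, a higher share than in the cell cycle and housekeeping lists. All 22 cell cycle and 14 housekeeping genes averaged that much. Locus length differed too, with a median of 58038 bp for fusion and adhesion and 19100.5 bp over all genes. The differences were not tested. Sites at listed genes can belong to a neighbour within the same 10 kb.

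The lists differed in how their kept sites ranked at the 2 stages. At the 44 kept sites of sarcomere genes the median percentile was 88.8 in myotubes and 56.1 in myoblasts, and 40 ranked higher in myotubes. At the 34 sites of excitation and synapse genes it was 93.4 and 71.8, with 28 higher, and all 34 held a MyoG peak. At the 58 sites of fusion and adhesion genes it was 75.5 and 65.0, with 31 higher. At the 38 sites of E-proteins and repressors the order was turned, 73.7 in myotubes and 76.9 in myoblasts, though 24 of them ranked higher in myotubes. The shift was not limited to muscle lists. At 9 sites of housekeeping genes the medians were 86.5 and 50.4, with 8 higher in myotubes, at 9 sites of cell cycle genes 82.0 and 46.3, with 8 higher, and at 17 sites of cell cycle exit genes 89.5 and 54.7, with 15 higher. Over all 8773 kept sites within 10 kb of a gene the medians were 74.7 and 57.8, and 68.6% ranked higher in myotubes. Because the 2 lists differ in make-up, a higher rank in myotubes is not a measure of stronger binding at these sites.

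H3K4me1 domains at kept sites of most lists had a longer median in myotubes than over all kept sites, in muscle and other lists. For excitation and synapse genes the domains at the 31 kept sites marked at both stages had a median of 14800 bp in myotubes and 6000 bp in myoblasts. For sarcomere genes, with 34 such sites, it was 8600 bp and 4400 bp, and 26 of the 34 were longer in myotubes. It was 9900 bp and 3200 bp at cell cycle exit genes (14 sites), 9200 bp and 6000 bp at growth signalling genes (29 sites), and 8700 bp and 5100 bp at housekeeping genes (6 sites). Over all listed genes it was 8200 bp and 5400 bp. Over the 7313 such sites within 10 kb of any gene it was 6200 bp and 5200 bp, with 54.8% longer in myotubes.

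**Figure D4:**
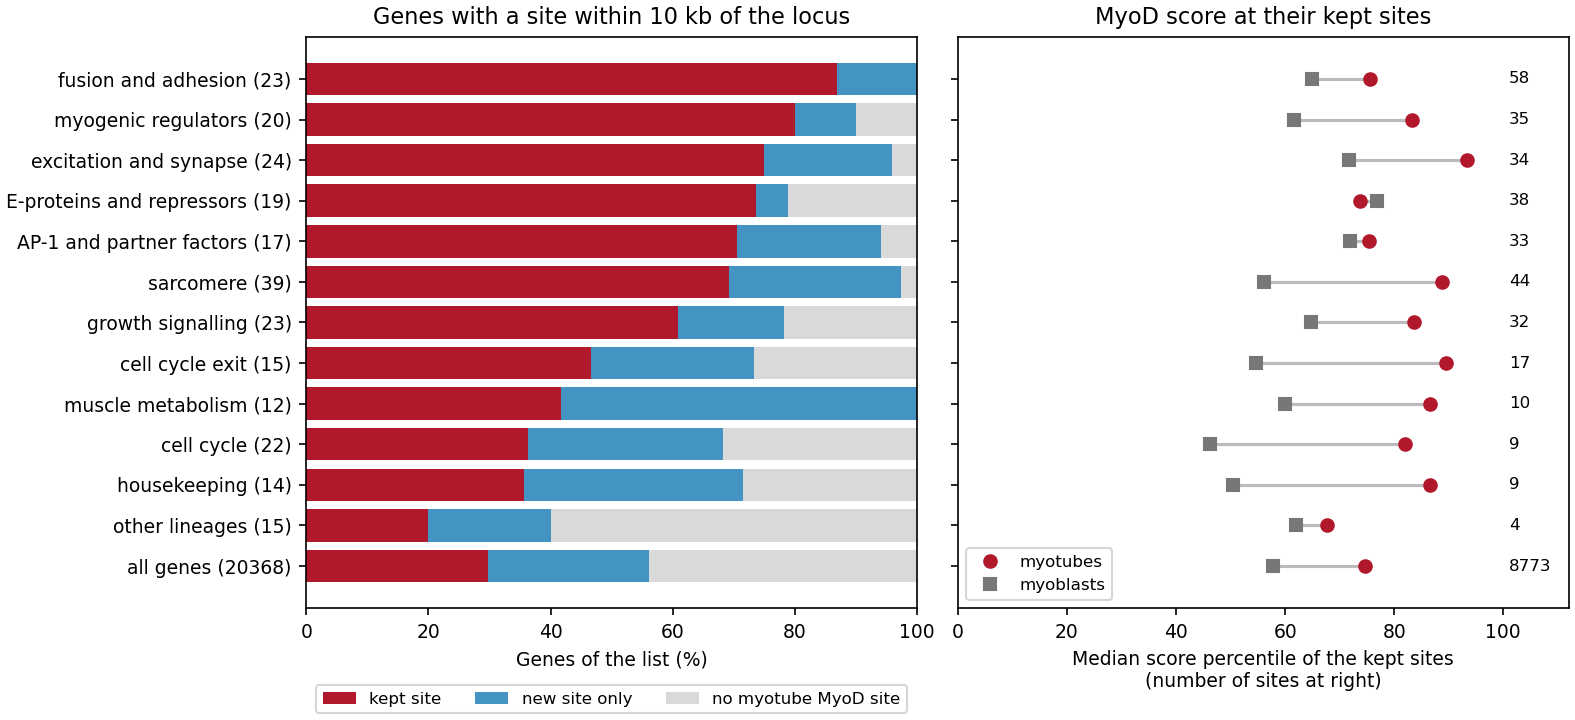
Left, the share of genes of each list with a kept site, a new site alone or no myotube MyoD site within 10 kb of the locus (number of genes in brackets). Right, the median MyoD score percentile of the kept sites of each list in myotubes (red circles) and in myoblasts (grey squares); sarcomere sites stand at 88.8 and 56.1.

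Of the 4 myogenic factors of the MyoD family, Myog alone had a kept site within 10 kb. Myod1 had 4 new sites there. A wider window of 30 kb, used for Myod1 alone, held 3 kept sites, all on the side of lower coordinates. The site at chr7:53605328-53606845, 24997 bp from the locus, scored 3100 in myotubes and 1218 in myoblasts. The next, at chr7:53608043-53609506 and 22336 bp away, scored 2435 and 904. Both held MyoG, and their H3K4me1 domain spanned 18400 bp in myotubes and 6000 bp in myoblasts. The last, 11754 bp away at chr7:53619334-53620088, scored 130 in myotubes and 63.3 in myoblasts and held no MyoG peak. Myf5 and Myf6, which lie side by side in the genome, had no myotube MyoD site within 10 kb.

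Myog had a kept site over its start that ranked very differently in the lists. At chr1:136185805-136187937 the score was 3100 in myotubes and 92.2 in myoblasts, percentiles 99.2 and 25.3. No H3K4me1 domain met it in myoblasts, and one of 23400 bp did in myotubes. A second site, 5.70 kb from the locus at chr1:136178992-136180877, scored 1007 and 154, and 7 new sites lay within the same 10 kb. Its promoter, printed above, holds no preferred E-box, and the kept peak extends over 2133 bp.

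Other listed myogenic regulators also had kept sites. Mef2d, a MADS-box factor that acts with MyoD, had 3, and Mef2a 1, at scores of 1263 in myotubes and 610 in myoblasts. Pax7, the factor of satellite cells, had 3, and the one at chr4:139326220-139327977 scored 2049 in myotubes and 2186 in myoblasts. Rbm24, an RNA-binding protein of muscle, had 1 over its start at 1087 and 168.

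E-proteins, the dimer partners of MyoD, and their antagonists were frequent among genes with kept sites. Tcf12 and Tcf4 had 6 each and Tcf3 had 1. The strongest of Tcf12 scored 3100 in myotubes and 1369 in myoblasts, and that of Tcf4 2558 and 2987. Id1, which blocks E-proteins, had 4 and no new site, and Id3 had 2. Hes6 had 2, of which the one over its start scored 3096 and 1419. Heyl, a Notch target, had 4, with 3100 or more at both stages at chr4:122904777-122906289. Zeb1, a repressor that binds E-boxes, had 15 new sites and none kept.

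At sarcomere genes the kept sites whose scores are given here scored higher in myotubes than in myoblasts, with myoblast ranks from low to high. Scores of the 2 lists share no known scale. Over all kept sites the median score was also higher in myotubes, at 404 beside 213 in myoblasts. Ttn had a kept site over its start at chr2:76819623-76821409, which scored 3100 in myotubes and 588 in myoblasts (myoblast percentile 82.8). Tnnt3, a fast troponin T, had 4, led by 3100 and 807. Tnnc1, the slow troponin C, had 2. The one 0.212 kb from its locus scored 1802 and 70.7 (myoblast percentile 10.6), with no myoblast H3K4me1 domain. The other was at percentile 77.8 or higher at both stages. Mybph, a myosin-binding protein, had 2, at 3100 in myotubes and 697 and 230 in myoblasts. Des, the muscle intermediate filament, had 1 over its start, at 1477 and 1122. Myh3, Mylpf and Ldb3 had 7, 4 and 6 new sites and none kept.

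The receptor and its anchors at the neuromuscular synapse had strong kept sites. The site over the start of Chrna1, chr2:73416418-73419313, and one within Rapsn, which encodes the protein that clusters the receptor, at chr2:90874916-90876284, scored 3100 or more at both stages. Chrnb1 had one over its start at 676 in myotubes and 1165 in myoblasts. Chrnd and Chrng, which are neighbours, share the site chr1:89099664-89102694 with 3100 and 1065. Musk, the receptor kinase of the synapse, had 3, with 2731 and 1597 over its start. Cacng1, a calcium channel subunit, had 2, at 2561 and 2660 in myotubes and 1856 and 1219 in myoblasts.

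Adhesion and fusion genes held several of the sites that were at 3100 or more at both stages, found at 8 listed genes in all. Those were Cdh15, Ncam1, the neural cell adhesion molecule, Itga7, the laminin receptor of muscle, Chrna1, Rapsn, Heyl, Runx1 and Fgfr4, a growth factor receptor of myoblasts. Tmem8c, the fusion protein myomaker, had 4, whose myoblast scores ran from 60.2 to 1425 while their myotube scores ran from 949 to 2701. Its site at chr2:26930472-26931880 scored 60.2 in myoblasts, close to the lowest score of that list, 60, and 1205 in myotubes. Met, the receptor of hepatocyte growth factor, had 8, and Adam12, a protease, had 7.

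Genes of the cell cycle and of cell cycle exit also had kept sites. Ccnd3, the D-type cyclin of differentiating muscle, had 4, led by 3100 in myotubes and 1963 in myoblasts, and Ccnd1 had 3, led by 3100 and 1440. Gadd45g had 4, one of them over its start. Rb1, the retinoblastoma gene, had 1, at 2161 and 82.1. Cdkn1a, an inhibitor of cyclin-dependent kinases, had 3 new sites and none kept. Among replication genes Rrm2 had 2, the stronger 4.46 kb away at 3100 and 1784, and Mcm2 had 1.

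Near kept sites of any number, the share of genes past 2-fold in DRRi was about the same as over all genes. Changes were computed on log2(FPKM + 1), which understates low genes, for genes averaging at least 1 FPKM in the pair. Over all 10577 such genes, 0.898% stood at least 2-fold above GFPi in DRRi and 0.804% at least 2-fold below. Of the 4285 near a kept site 39 were higher, or 0.910% (0.648 to 1.24), and 46 lower, or 1.07% (0.787 to 1.43). Near new sites alone 24 of 3534 were higher and 19 lower. By number of kept sites, 17 of 2420 genes with 1 were lower (0.702%) and 13 of 957 with 2 (1.36%). With 3 or 4 it was 10 of 587 (1.70%), and with 5 or more 6 of 321 (1.87%). The share of higher genes fell, from 1.07% with 1 to 0.836% with 2, 0.681% with 3 or 4 and 0.312% with 5 or more. These counts are small, their intervals overlap, and the difference between classes was not tested. In the authors' deposited table, at a q-value under 0.05, 28 genes near kept sites were higher (0.653%, against 0.643% of all) and 33 lower (0.770%, against 0.577% of all). The authors' q-values, in both experiments, compare 1 library with 1 library and so hold no spread between replicates.

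In pHAN_DRR1.2 few genes passed 2-fold, and their share varied among genes with kept sites. Over all 10699 genes, 0.318% stood at least 2-fold above pHAN_GFP and 0.0841% at least 2-fold below. Of the 4379 near a kept site 22 were higher, or 0.502% (0.315 to 0.760), and 2 lower, against 5 higher and 3 lower of 3555 near new sites alone and 7 higher and 4 lower of 2765 with no site. By number of kept sites, 7 of 2472 genes with 1 were higher (0.283%), 11 of 972 with 2 (1.13%), 3 of 602 with 3 or 4 (0.498%) and 1 of 333 with 5 or more (0.300%). The difference between these classes was not tested. By q-value in the authors' deposited table, 72 genes near kept sites were higher, or 1.64% (1.29 to 2.07), beside 1.03% of all and 0.534% (0.322 to 0.833) near new sites alone. Lower in that table were 32 near kept sites, or 0.731%, beside 0.589% of all. The median log2 change was 0.03 near kept sites and 0.02 over all genes. These counts hold few genes and shift with the pseudocount.

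Among genes near a kept site averaging at least 5 FPKM, 8 stood furthest below GFPi in DRRi. Nptx1, a secreted pentraxin, had 5.52 FPKM in DRRi and 34.3 FPKM in GFPi (log2 change -2.44), and had 2 kept sites. Chrnd was at 3.74, against 17.5 (-1.96), and Igfbp5, an IGF-binding protein, at 237, against 760 (-1.68). Myog had 2.61 FPKM in DRRi and 10.2 FPKM in GFPi (-1.64). The others were Dmp1 (-1.61), Gas2 (-1.52), Olfm1 (-1.39) and Mylk2 (-1.35), the light chain kinase of skeletal muscle, which had 5 kept sites. All 8 had a q-value under 0.05 in the authors' deposited table, without replicates, the largest being 0.0302 for Olfm1. The q-value given for a named gene is that of its most abundant coding sequence, whereas its FPKM is summed over all its coding sequences.

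The 8 furthest above GFPi were of other kinds. Eda2r, a receptor of the tumour necrosis factor family, had 29.2 FPKM in DRRi and 6.82 FPKM in GFPi (1.95), and Loxl2, which crosslinks collagen, at 11.3, against 2.51 (1.80). Sulf2 (1.77), Chac1 (1.62), Ak1 (1.61) and Col1a1 (1.51), a chain of type I collagen, followed. Akr1b3, an aldose reductase, at 11.2, against 1.89 (2.08), and Hmga1 (1.49) were not past the q threshold in the authors' deposited table. Their q-values there, 1.00 and 0.964, belong to the most abundant coding sequence alone and not to the summed FPKM.

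In pHAN_DRR1.2 the 8 furthest above pHAN_GFP were mostly muscle genes. Myl1, a fast myosin light chain, was at 32.9 FPKM in pHAN_DRR1.2, against 8.97 in pHAN_GFP (1.77). Tnni1, Tnnc2 and Tnni2, subunits of troponin, stood at 27.2, 23.7 and 12.2, against 9.20, 9.26 and 4.58. Myog was at 65.8, against 26.3 (1.29), Nptx1 at 10.7, against 3.13, and Alox5, a lipoxygenase, at 67.7, against 27.1 (1.29). Dync1i1, a dynein chain, was at 15.1, against 6.17 (1.17). All 8 had a q-value under 0.05 in the authors' deposited table, the largest being 0.0154 for Tnni2.

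The kept sites of these 8 genes covered a wide range of myoblast ranks. The kept site of Myl1, 0.786 kb from its locus, scored 1544 in myotubes and 147 in myoblasts (myoblast percentile 46.5). Those of Tnnc2 scored 707 and 89.0 in myotubes and 92.0 and 63.7 in myoblasts. Those of Tnni1 scored 1249 and 710 in myotubes and 102 and 72.5 in myoblasts. That of Tnni2 scored 1380 and 169 (myoblast percentile 51.5). The troponin and myosin sites of these genes were thus near or below the middle of the myoblast list. This does not extend to all troponin and myosin genes. The best kept site of Tnnt3, for example, was at percentile 88.0 or higher at both stages. The sites of Nptx1 scored 561 and 295 in myotubes and 187 and 560 in myoblasts. The highest myoblast scores were 1980 for Alox5 and 1565 for Dync1i1.

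The 8 furthest below pHAN_GFP were St8sia2 at 6.83 FPKM in pHAN_DRR1.2, against 17.2 in pHAN_GFP (-1.22), Igdcc4 at 5.39, against 11.8, Gas6 (-0.98), Fmo1 (-0.91), Fndc1 (-0.89), Igf1 (-0.82), Lix1 (-0.82) and Prelp (-0.80). St8sia2 makes polysialic acid and Igf1 is the growth factor IGF-1. Of these, only St8sia2 was past 2-fold on the log2(FPKM + 1) scale, and all 8 had a q-value under 0.05 in the authors' deposited table, the largest being 0.00732 for Igf1.

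**Figure D5:**
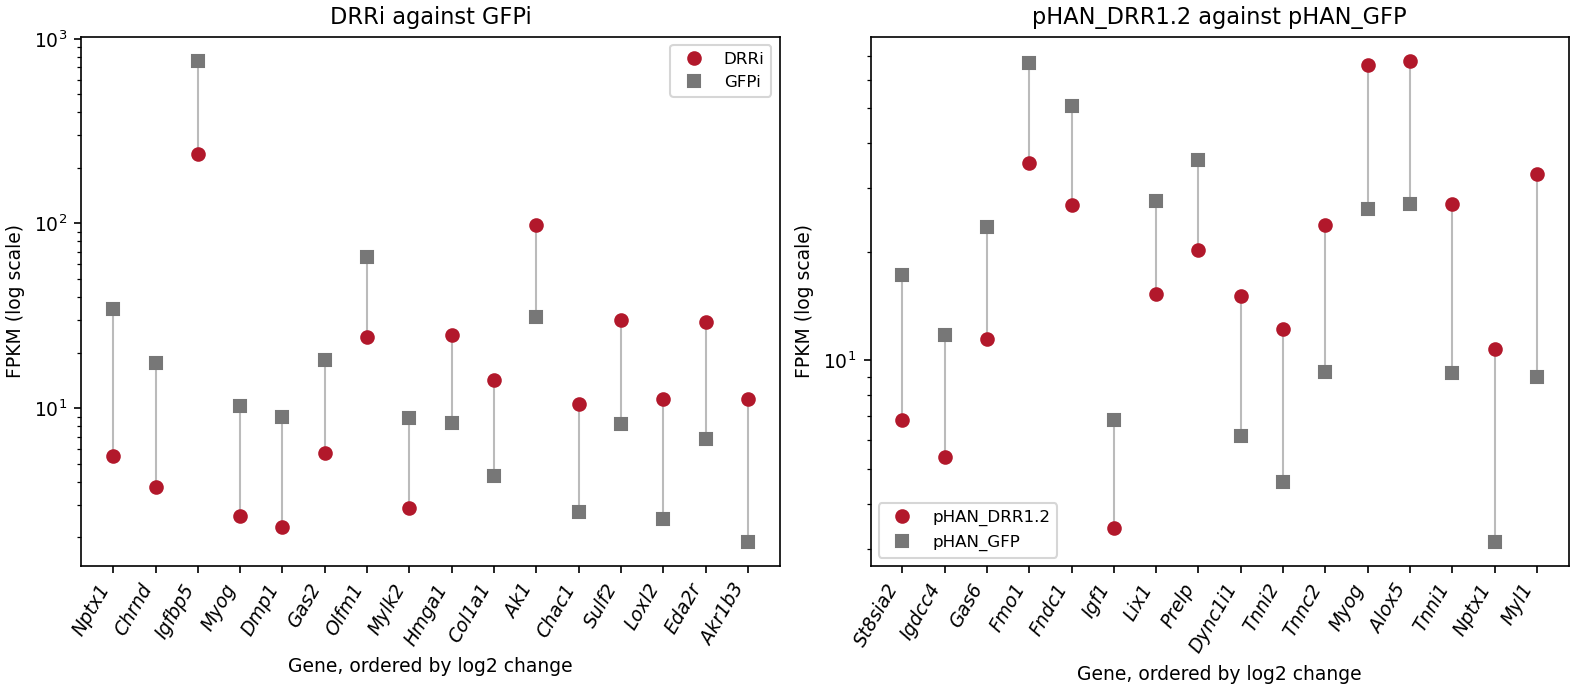
FPKM on a log axis of the 8 genes furthest below and the 8 furthest above the GFP library among genes with a kept site within 10 kb and a mean of 5 FPKM or more, for DRRi (red) against GFPi (grey) at left and pHAN_DRR1.2 (red) against pHAN_GFP (grey) at right. Myog lies lower in DRRi (2.61) than in GFPi (10.2) and higher in pHAN_DRR1.2 (65.8) than in pHAN_GFP (26.3).

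The lists gave few genes past 2-fold with a kept site. The values are set beside the whole list and beside the 0.804% of all genes that were 2-fold lower in DRRi and the 0.318% that were 2-fold higher in pHAN_DRR1.2. Of 18 measured sarcomere genes with a kept site 7 were lower and 0 higher in DRRi, with a median log2 change of -0.24, against 0.02 over all genes. Of 21 in pHAN_DRR1.2 6 were higher and 0 lower, with a median of 0.62, against 0.02. The whole sarcomere list, with or without a kept site, had 8 of 20 lower in DRRi (median -0.50) and 8 of 24 higher in pHAN_DRR1.2 (median 0.67), so the counts do not set genes with kept sites apart. Of 14 excitation and synapse genes with a kept site 3 were lower in DRRi (median -0.75), and none of 16 passed in pHAN_DRR1.2 (median 0.35). That whole list had 3 of 14 lower in DRRi and 1 of 18 higher in pHAN_DRR1.2. Myogenic regulators with a kept site had 2 of 12 lower in DRRi and 2 of 13 higher in pHAN_DRR1.2. In their whole list the counts were 2 of 14 and 2 of 15. Of 8 cell cycle genes and 5 housekeeping genes with a kept site none passed in either experiment. In the whole lists 1 of 22 cell cycle genes was higher in pHAN_DRR1.2, and no housekeeping gene passed.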

How the data were processed

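The authors deposited lists of MyoD and MyoG peaks with a score per peak, called with MACS per the file headers; its version, control, threshold and the meaning of the score are not given in the sources used here. The labels name 2 runs for each MyoD and MyoG sample, with 1 list each, and the header of the myotube MyoD list names run 2. The deposited H3K4me1 domains carry read counts, p-values and a fold over control; per the submitters' processing notes, SICER, TopHat, bedtools and the mm9 build were used, with no version given. The deposited expression tables give FPKM per coding sequence and the authors' q-value, each from 1 library per condition. For named genes the q-value of the most abundant coding sequence is given. One condition of each table bears a GFP name, and the other was taken as DRRi or pHAN_DRR1.2 since the labels tie each table to these samples.

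Intervals, counted from 1, were compared with Python 3.11.15, numpy 2.4.6, pandas 2.3.3 and scipy 1.17.1, in code tested on simulated data. Scores were ranked within a list. FPKM was summed per gene symbol, and genes averaging at least 1 FPKM were compared on log2(FPKM + 1) within a table. A RefSeq start was used where the length from it to the gene's other end was within 100 bp of the deposited locus length. Genes named are the listed genes with their kept sites, the 10 with the most kept sites, the 8 furthest in each direction in each experiment among those averaging at least 5 FPKM, and the 10 kept sites ranking highest by the lower of their percentiles. The members and the lists were chosen with earlier results of these data known. Alternatives changed the overlap, the score and fold minimum, the distance, the pseudocount and the filter. Total RNA of myotubes and of satellite cells was not analysed here. No column of other samples was used. Some genes that this rule names are not reported here.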

Additional observations from a re-analysis of the deposited data

How the results depend on the processing

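The number of kept sites was 12515 with a reciprocal overlap of 50%, 13269 with the myotube centre inside a myoblast peak and 9616 with the myotube list limited to the length of the myoblast list; it was 6729 with scores at or above the list median at both stages. The MyoG share of kept sites was 71.4% with a reciprocal overlap of 50% and 60.9% with MyoG scores at or above their median (32.2% of new sites). H3K4me1 at both stages was at 79.9% of kept sites by the site's centre (41.7% of new sites) and at 53.9% with domain folds at or above their median (21.0% of new sites). Sites within reach of a locus were 59.8% at 5 kb (65.2% of new sites), 82.0% at 50 kb (85.8%) and 52.8% with loci of genes at 1 FPKM or more (55.8%). Genes near kept sites past 2-fold in DRRi numbered 149 with a pseudocount of 0.1 and 50 with a mean of 5 FPKM or more, beside 85. In pHAN_DRR1.2 they numbered 49 with a pseudocount of 0.1 (1.12%, against 0.907% of all genes). By the most abundant coding sequence alone they numbered 39 (0.894%, against 0.732%), beside 24 (0.548%, against 0.402%) in the main setting. Kept sites stayed above new sites in MyoG and H3K4me1 share, and below them within reach of a locus, in each of these settings where both were computed. The cause of the shifts was not tested. No paired analysis was possible because each group holds 1 sample; for the same reason no sample could be left out.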

Other observations

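Most of the weakest kept sites had an H3K4me1 domain in myoblasts. In the lowest decile of myotube scores 83.6% of kept sites lay in a myoblast H3K4me1 domain, beside 90.3% in the highest decile. A domain at both stages was at 74.1% and 89.5% of the sites of these deciles. By the myoblast score the myoblast domain was at 73.0% (70.0 to 75.8) of kept sites in the lowest decile and 98.1% (97.4 to 98.7) in the highest. Domains at both stages were there at 68.5% and 96.4%. Domains with several kept sites were few: 1435 of the 10379 myotube domains that held any had 2 or more, 44 had 5 or more, and the fullest held 11.

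Kept sites were found at genes that the myocyte libraries list near 0 FPKM. Eya2, a transcriptional cofactor, had 4 kept sites at 0.01 FPKM in DRRi, 0.03 in GFPi, 0.11 in pHAN_DRR1.2 and 0.05 in pHAN_GFP. Pecam1, an endothelial adhesion molecule, had 2, one of which scored 1608 in myotubes and 743 in myoblasts, at under 0.1 FPKM in the 4 libraries. Gapdh, by contrast, was at 60.9 FPKM in DRRi, 48.4 in GFPi, 39.5 in pHAN_DRR1.2 and 38.6 in pHAN_GFP and had 3 kept sites, one with a score of 3100 for both MyoD and MyoG in myotubes and 244 for MyoD in myoblasts, 3.98 kb from its locus.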
